A study of Mus musculus with 9 samples.

Results

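The miR-181 family was represented by 6 of the 358 microRNAs (miRNAs) measured in mouse epididymosomes. These are all the rows of the deposited table named miR-181a, miR-181b, miR-181c or miR-181d, whichever arm of the hairpin they come from: miR-181a-5p, miR-181b-5p, miR-181c-5p, miR-181d-5p, miR-181a-1-3p and miR-181c-3p. Epididymosomes are small membrane vesicles that the epididymal epithelium sheds into the fluid in which sperm mature. They were purified on a density gradient from the caput (the segment nearest the testis), the corpus and the cauda (the segment in which sperm are stored) of untreated Swiss male mice aged 8 weeks. Each segment was represented by 3 small RNA libraries, and every library pooled the RNA of several animals, which averages out differences between single animals. The question put to the family was whether its levels, its composition and the balance of its arms differed between the 3 segments.

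An miRNA is cut from a hairpin as a duplex, and one strand, from the 5p or the 3p arm, is loaded into an Argonaute protein and pairs with messenger RNAs mainly through its seed (bases 2 to 8). In the miR-181 family the 5p strands are the usual guides. The family is best known from thymocytes, where miR-181a tunes the sensitivity of the T cell receptor, and it is also well expressed in brain and endothelium. Vesicle preparations hold RNA from every cell type that sheds into the fluid, and in such bulk RNA fewer vesicles from one cell type and less of an miRNA per vesicle cannot be told apart.

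The 6 mature sequences are shown because the members are close enough to be confused in counting and because the seed defines the family. RefSeq (GRCm38.p6) held a mature sequence for 299 of the 358 names, all 6 members among them. Each is written 5′ to 3′ with the seed in capitals.
miR-181a-5p: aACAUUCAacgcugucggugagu
miR-181c-5p: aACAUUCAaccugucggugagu
miR-181b-5p: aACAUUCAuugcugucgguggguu
miR-181d-5p: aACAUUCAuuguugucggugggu
miR-181a-1-3p: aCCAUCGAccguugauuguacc
miR-181c-3p: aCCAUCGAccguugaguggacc

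The 4 members from the 5p arm shared 1 seed, which no other matched miRNA of the table carried, and both 3p members shared another. Outside the seed the 5p members formed 2 pairs. miR-181a-5p and miR-181c-5p were 1 edit apart, a single base that the shorter miR-181c-5p lacks. Compared base by base without a gap, these 2 sequences differed at 11 positions. miR-181b-5p and miR-181d-5p were 2 edits apart, C12U (counted from the 5′ end, the base of miR-181b-5p first) and 1 base of length at the 3′ end. The 3p members differed by U16G and U19G, with the base of miR-181a-1-3p first. How the counting assigned reads that fit more than 1 of these sequences is not given in the sources used here, so the division of reads within each pair is uncertain.

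In GRCm38 (GENCODE M21) the family is encoded by 6 hairpins in 3 pairs. Mir181a-1 (chr1:137966455-137966541) and Mir181b-1 (chr1:137966639-137966718) lie on the plus strand, 97 bases apart, within an exon of the long non-coding RNA A430106G13Rik. Mir181a-2 (chr2:38852735-38852810) and Mir181b-2 (chr2:38853830-38853918), also on the plus strand and 1019 bases apart, lie in an intron of Nr6a1, which is transcribed from the opposite strand. Mir181d (chr8:84178716-84178787) and Mir181c (chr8:84178873-84178961) are 85 bases apart on the minus strand, in an intron of Nanos3 and on its strand. The 5p products of miR-181a and miR-181b therefore each come from a pair of hairpins that cannot be separated in these counts. miR-181a-1-3p comes from Mir181a-1 alone, and miR-181c and miR-181d from the chromosome 8 pair. In the Mir181a-1 hairpin, shown with both mature arms in capitals, the arms face each other across the loop.
Mir181a-1: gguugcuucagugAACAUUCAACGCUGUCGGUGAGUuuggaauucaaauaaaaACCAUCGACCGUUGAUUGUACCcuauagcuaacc

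Library depth ranged from 1548581 to 11306605 reads on miRNAs, as recovered from the steps of the deposited CPM (reads of an miRNA scaled to a fixed library total). The libraries differed in the share taken by miR-10a and miR-10b, from 33.2% to 71.3%, and the caput library of replicate 2 held the highest share and the lowest median CPM, 21.3. CPM were therefore read beside values scaled by the trimmed mean of M-values (TMM), which aligns the bulk of miRNAs between libraries, and beside ratios between members of the same library, which do not depend on scaling.

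miR-181c-5p and miR-181a-5p carried nearly all reads of the family. miR-181c-5p stood at 8963, 4700 and 11799 CPM in the 3 caput libraries, at 9940, 12745 and 9471 CPM in corpus libraries and at 12146, 10464 and 11374 CPM in cauda libraries. It ranked 12th of the 358 miRNAs by mean level over the 9 libraries, and apart from the low caput library of replicate 2 its values in the 3 segments overlapped. miR-181a-5p, the member studied most in thymocytes, stood at 5650, 4041 and 8340 CPM in caput libraries, 4459, 7248 and 5703 CPM in corpus libraries and 5693, 4977 and 6071 CPM in cauda libraries. The caput held both its highest and its lowest value. The segment means of miR-181a-5p were 6010 ± 2172, 5803 ± 1398 and 5580 ± 556 CPM (SD, n = 3 each) in caput, corpus and cauda, an order within the spread between libraries.

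The members with the alternative 5p sequence were far lower. miR-181d-5p, the cluster partner of miR-181c, measured 506, 273 and 623 CPM in caput libraries, 582, 708 and 503 CPM in corpus libraries and 557, 763 and 582 CPM in cauda libraries. miR-181b-5p, the cluster partner of miR-181a, measured 298, 119 and 354 CPM in caput libraries, 228, 343 and 239 CPM in corpus libraries and 282, 363 and 218 CPM in cauda libraries. Both were lowest in the caput library of replicate 2, and the 3 segments overlapped for both. By mean level they ranked 71st and 99th of the 358 miRNAs.

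By mean level the 3p members were the least abundant. miR-181c-3p measured 265, 132 and 284 CPM in caput libraries, 211, 198 and 160 CPM in corpus libraries and 150, 157 and 172 CPM in cauda libraries, so that its highest values were caput values and its lowest was the caput library of replicate 2. miR-181a-1-3p measured 26.9, 15.5 and 29.7 CPM in caput libraries, 31.3, 30.9 and 35.5 CPM in corpus libraries and 50.5, 38.9 and 43.9 CPM in cauda libraries. Its 3 segments did not overlap in any of the comparisons, in the order caput, corpus, cauda. It rested on 55 to 304 reads a library, against 14667 to 101338 reads for miR-181c-5p, and was thus the member with the largest counting error.

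**Figure D1:**
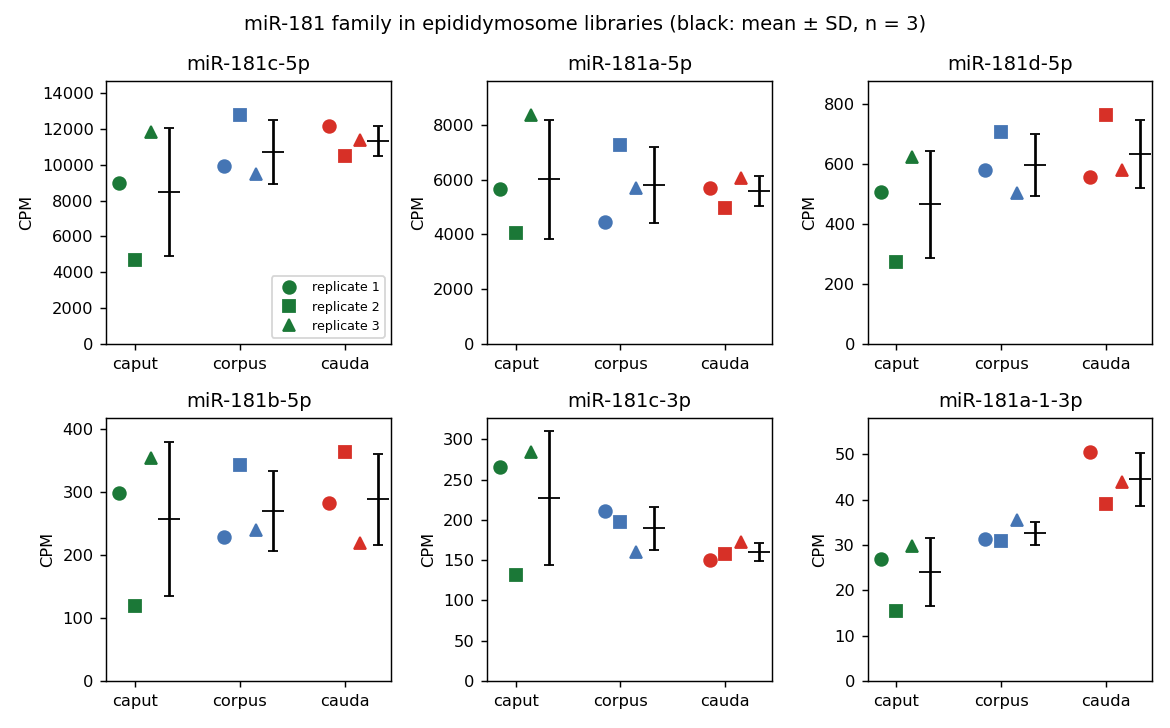
Level of each member (CPM, linear axes from 0) in the 9 libraries, with 1 panel per miRNA and a marker shape per replicate number. Black bars show the mean and SD of 3 libraries. The square of the caput is the lowest point in all 6 panels, and miR-181a-1-3p is the only panel in which the segments do not overlap.

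Together the 6 members made up 1.57%, 0.928% and 2.14% of the reads on miRNAs in the caput libraries, 1.55%, 2.13% and 1.61% in corpus libraries and 1.89%, 1.68% and 1.85% in the cauda. The 3 segments overlapped in this share. Of the reads from the 4 members of the 5p arm, miR-181c-5p took 51.5% to 65.4% and miR-181a-5p 29.3% to 44.2% over the 9 libraries, with miR-181d-5p at 2.95% to 4.61% and miR-181b-5p at 1.20% to 2.19%. The family's pool of shared-seed guides was therefore, by reads, mainly the product of miR-181c and miR-181a in every segment. The order miR-181c-5p, miR-181a-5p, miR-181d-5p, miR-181b-5p held in all 9 libraries. Levels of different miRNAs were compared as reads, and how efficiently each sequence was captured was not measured.

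No member of the family was called different between any of the segments in CPM (limma, Benjamini-Hochberg adjusted p under 0.05 and at least 2-fold). From caput to corpus 0 of 6 members were called, against 72 of 321 miRNAs tested (22.4%). From corpus to cauda 0 of 6 were called, against 65 of 342 (19.0%), and from caput to cauda 0 of 6, against 171 of 349 (49.0%). At an unadjusted limma p under 0.05 the counts were 0, 0 and 1 member. The median log2 change of the members was 0.31, 0.09 and 0.39 in the 3 comparisons, below the median of all miRNAs tested, which was 0.47, 0.18 and 0.81. From caput to corpus the fitted log2 changes of the 6 members lay between -0.19 (miR-181c-3p) and 0.47 (miR-181a-1-3p), with limma adjusted p of at least 0.340, and from corpus to cauda between -0.24 and 0.43 for the same members, with limma adjusted p of at least 0.505.

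The most abundant member, miR-181c-5p, had a fitted log2 change from caput to cauda of 0.51 (SE 0.32, 95% interval -0.15 to 1.18, limma adjusted p = 0.184). miR-181a-5p had a log2 change of -0.05 (SE 0.32, interval -0.72 to 0.62, limma adjusted p = 0.900). The interval of miR-181a-5p leaves out a 2-fold change in CPM, but under TMM it includes a 2-fold decrease. For miR-181c-5p the change in CPM rested on single caput libraries: it was 0.14 without replicate 2 (limma adjusted p = 0.612) and 0.80 without replicate 3, where it passed the adjusted threshold but not 2-fold (limma adjusted p = 0.0267). miR-181d-5p and miR-181b-5p had log2 changes of 0.51 (interval -0.32 to 1.33) and 0.27 (interval -0.67 to 1.22), with limma adjusted p of 0.290 and 0.630.

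The 3p members had the highest and the lowest fitted change of the family in CPM. miR-181a-1-3p had the largest log2 change of the family from caput to cauda, 0.90 (SE 0.41, interval 0.03 to 1.78, limma adjusted p = 0.0757). That change missed the adjusted threshold although the segments did not overlap, and 189 of the 349 miRNAs tested (54.2%) did not overlap between caput and cauda either. The corresponding background was 34.9% from caput to corpus and 46.2% from corpus to cauda, with miR-181a-1-3p as the 1 non-overlapping member of 6 in each comparison in CPM. Without the caput library of replicate 3 the change of miR-181a-1-3p was 1.08 (limma adjusted p = 0.0271) and was called. miR-181c-3p had a log2 change of -0.43 (SE 0.41, interval -1.29 to 0.43, limma adjusted p = 0.392). Without the caput library of replicate 2 the change of miR-181c-3p in CPM was -0.78 and passed the adjusted threshold but not 2-fold (limma adjusted p = 0.0454), and 0 of 6 members were called in any comparison.

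Scaling altered the picture for several members. Under TMM the caput library of replicate 2 received a factor of 0.478, and the median log2 change of all miRNAs tested moved from 0.47, 0.18 and 0.81 to -0.09, 0.08 and 0.13. Members were called in 0 of 6 cases from caput to corpus, against 28.3% of all miRNAs tested, in 0 of 6 from corpus to cauda, against 26.3%, and in 1 of 6 from caput to cauda, against 45.3%. In each of the 3 comparisons and under either scaling 1 of the 6 members lay above the median of all miRNAs tested.

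The member called under TMM was miR-181c-3p, the passenger strand of the chromosome 8 hairpin. Its TMM-scaled level was 352, 276 and 244 CPM in caput libraries, 195, 173 and 141 CPM in corpus libraries and 138, 128 and 134 CPM in cauda libraries. All 3 caput libraries lay above all corpus and cauda libraries on this scale, and the low value of the caput library of replicate 2 in CPM was no longer the lowest. The share of all miRNAs without such overlap was not determined under TMM. In CPM it was 34.9% from caput to corpus and 54.2% from caput to cauda, so the separation alone does not set miR-181c-3p apart. From caput to cauda miR-181c-3p fell by 1.10 on the log2 scale (SE 0.24, limma adjusted p = 0.00283), 2.15-fold. With each of the 9 libraries left out in turn the TMM change stayed between -1.22 and -0.96 and was called in 8 cases. The exception was the fit without the caput library of replicate 1, with -0.96, short of 2-fold (limma adjusted p = 0.0126). Leaving out a corpus library cannot move this estimate, which stayed at -1.10 in those fits. The TMM factors were those of all 9 libraries throughout, so the scaling itself was not tested in this way.

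miR-181a-5p also passed the adjusted threshold under TMM from caput to cauda, with a log2 change of -0.73 that did not reach 2-fold (interval -1.18 to -0.27, limma adjusted p = 0.0127). From caput to corpus miR-181c-3p and miR-181a-5p likewise passed it under TMM without reaching 2-fold, with log2 changes of -0.77 and -0.59 (limma adjusted p = 0.0329 and 0.0450). The TMM changes of miR-181c-5p, miR-181d-5p and miR-181b-5p from caput to cauda were -0.16, -0.17 and -0.40, opposite in sign to those in CPM and without a call under either scaling. No direction is therefore given for these 3 members. miR-181a-1-3p, whose segments did not overlap in CPM, had TMM-scaled levels of 35.7, 32.4 and 25.5 CPM in caput libraries and 46.6, 31.7 and 34.1 CPM in cauda libraries. These overlapped, and its log2 change under TMM was 0.25 (limma adjusted p = 0.457).

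**Figure D2:**
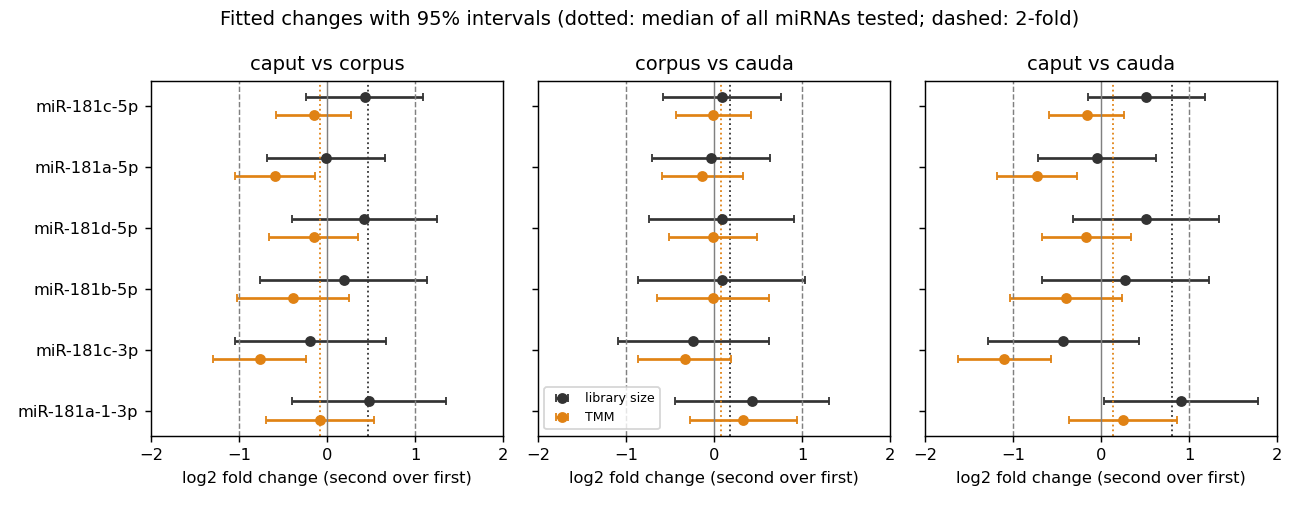
Fitted log2 fold change of each member (x axis, second segment over the first, with 95% intervals) in the 3 comparisons, in CPM scaled by library size (black) and after TMM (orange). Dotted lines mark the median of all miRNAs tested and dashed lines a 2-fold change. Only the TMM value of miR-181c-3p from caput to cauda, -1.10, lies beyond a dashed line.

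Ratios between members avoid the choice of scaling. The cluster partners miR-181c-5p and miR-181d-5p had a ratio of 18.0 ± 0.886 in caput libraries, 18.0 ± 0.871 in corpus libraries and 18.4 ± 4.18 in cauda libraries (SD, n = 3 each). The segments overlapped, with log2 differences of 0.00 between them. The ratio of miR-181c-5p to miR-181a-5p, products of different chromosomes, was 1.59, 1.16 and 1.41 in caput libraries, 2.23, 1.76 and 1.66 in corpus libraries and 2.13, 2.10 and 1.87 in cauda libraries. Every caput library lay below every library of the other segments, a difference of 1.48-fold between caput and cauda in the geometric mean. Of the ratios of any 2 miRNAs tested, 48.2% did not overlap from caput to corpus and 60.2% from caput to cauda. The median absolute log2 shift of all such pairs was 1.57 between caput and cauda, against 0.56 for this ratio. From caput to corpus the values were 1.03 and 0.44. These 2 sequences are the pair that differ by 1 inner base, and without a gap they differ at 11 positions. The part of read assignment in the ratio was not tested.

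Of the ratios compared, that of the 3p members differed most between segments. miR-181c-3p exceeded miR-181a-1-3p by 9.86, 8.54 and 9.57 times in caput libraries, 6.73, 6.39 and 4.49 times in corpus libraries and 2.97, 4.05 and 3.92 times in cauda libraries. The 3 segments did not overlap, and the ratio was 2.58-fold lower in cauda than caput libraries. Exact 95% binomial intervals, which cover counting error only, ran from 7.10 at the lowest in the caput to 5.19 at the highest in the cauda. Counting error thus did not bridge caput and cauda. The corpus intervals reached into both, with 5.03 to 8.21 in replicate 2 and 3.34 to 6.13 in replicate 3. The place of the corpus between the other segments was therefore not beyond counting error. Between caput and cauda 60.2% of the ratios of any 2 miRNAs tested did not overlap either (48.2% from caput to corpus and 47.0% from corpus to cauda), and 55.6% of all such pairs had a larger shift between caput and cauda than this one. The shift was thus of a size common in the table.

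In all, 7 ratios between members were compared in 3 comparisons, 21 exact two-sided permutation tests. With 3 libraries against 3 the smallest p possible was 0.1, which no adjustment brings under 0.05, and the smallest Benjamini-Hochberg adjusted value of these exact tests was 0.21. In 10 of the 21 the segments did not overlap, a count near the 47.0% to 60.2% found for the ratios of any 2 miRNAs.

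The 5p to 3p ratio of a hairpin compares the strands recovered from it. For Mir181c it was 33.8, 35.6 and 41.5 in caput libraries, 47.1, 64.4 and 59.4 in corpus libraries and 81.0, 66.5 and 66.1 in cauda libraries. The 3 segments did not overlap, in rising order. For miR-181a-5p over miR-181a-1-3p it was 210.2, 261 and 281 in caput libraries, 142, 234 and 161 in corpus libraries and 113, 128 and 138 in cauda libraries, where the caput and the corpus overlapped and the cauda lay below both. The latter ratio, labelled Mir181a-1 below, has the 5p product of 2 hairpins above the 3p product of 1. Neither its size nor its change therefore gives the arm preference of the Mir181a-1 hairpin alone. Both ratios lay strongly towards the 5p arm, ranking 7th (Mir181a-1) and 17th (Mir181c) of 71 precursors by mean 5p to 3p ratio.

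From caput to cauda the log2 5p to 3p ratio of Mir181c changed by 0.94 (SE 0.33, 95% interval 0.24 to 1.65, limma adjusted p = 0.0605) and that of Mir181a-1 by -0.97 (SE 0.34, 95% interval -1.70 to -0.23, limma adjusted p = 0.0605). The fitted changes were in opposite directions and of nearly equal size, and neither passed the threshold that 10 of 71 precursors (14.1%) passed. From caput to corpus and from corpus to cauda neither hairpin was called, against 1.41% and 5.63% of precursors. The 2 hairpins were both free of overlap between caput and cauda, as were 33.8% of the 71, and both between corpus and cauda (29.6%), but only Mir181c between caput and corpus (25.4%).

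**Figure D3:**
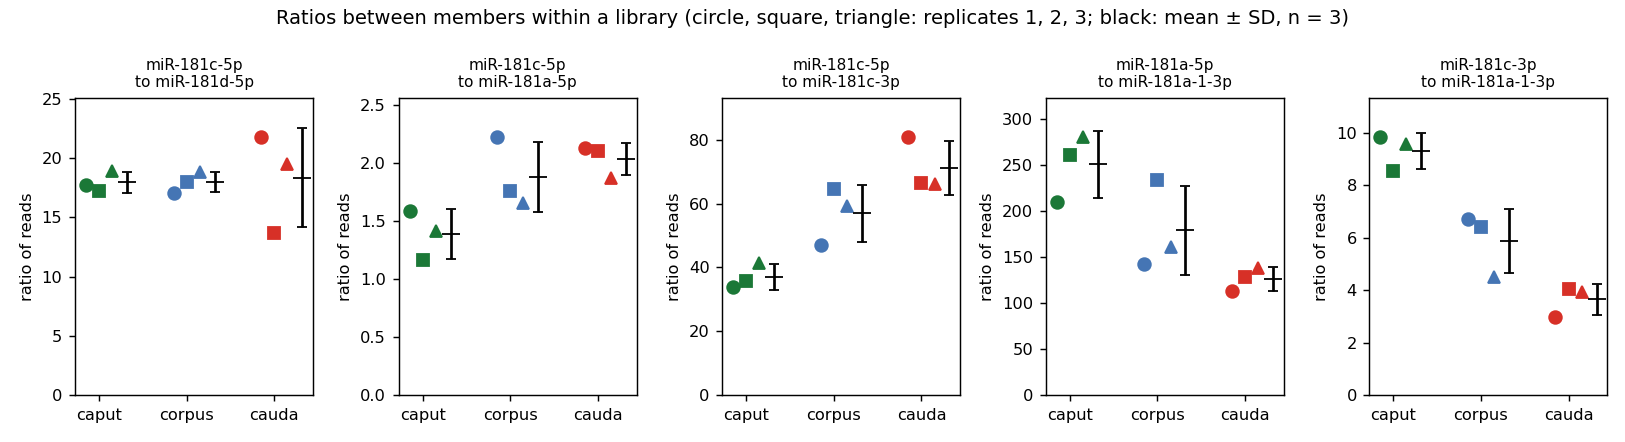
Ratios of reads between members within each library (linear axes from 0), with replicate numbers as circle, square and triangle and the mean and SD of 3 libraries in black. The ratio of miR-181c-5p to miR-181d-5p stays near 18.0 in caput and corpus, whereas that of miR-181c-3p to miR-181a-1-3p is 9.32 ± 0.694 in caput libraries and 3.65 ± 0.588 in cauda libraries.

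Over the 9 libraries the members varied less than the typical miRNA of the table. The SD of log2(CPM + 1) was 0.43 for miR-181c-5p and 0.32 for miR-181a-5p, with 30 and 8 of the 358 miRNAs lower, against a median of 0.81. After TMM it was 0.19 for miR-181c-5p, with 4 miRNAs lower, and 0.20 for miR-181d-5p, with 7 lower, against a median of 0.70. The least even members differed with the scaling: miR-181b-5p in CPM, with 0.50, and miR-181c-3p after TMM, with 0.52. All 6 members lay below the median under both scalings. That median covers miRNAs of every level, and the spread of the members was not compared with that of miRNAs of like abundance.

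**Figure D4:**
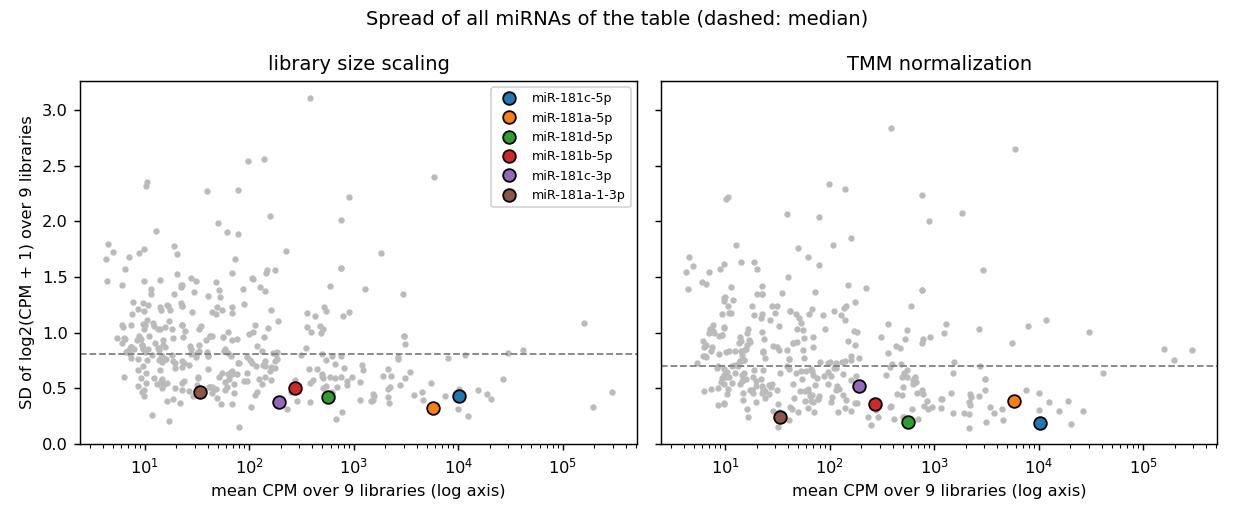
SD of log2(CPM + 1) over the 9 libraries against mean level (CPM, log axis) for each of the 358 miRNAs (grey), with members in colour and the median as a dashed line. All 6 members sit below the median of 0.81 in CPM and 0.70 after TMM.

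The miRNAs whose profile over the 9 libraries was most like that of a member, by root mean square (RMS) difference of the centred log2 values, included other members. For miR-181c-5p they were miR-26b-5p (0.166), miR-181d-5p (0.171) and miR-429-3p (0.182), with a median of 0.67 over all miRNAs. For miR-181d-5p they were let-7a-5p (0.161), miR-181c-5p (0.171) and let-7g-5p (0.180). For miR-181b-5p they were miR-29c-3p (0.170), let-7f-5p (0.193) and miR-181d-5p (0.204). The clustered pair from chromosome 8 were thus each among the 3 nearest profiles of the other. For the remaining members no other member was among the 3 nearest: miR-10a-3p (0.129), let-7c-5p (0.157) and miR-1843b-5p (0.224) lay nearest to miR-181a-5p, let-7c-5p (0.191), miR-1843a-5p (0.205) and miR-339-3p (0.232) to miR-181c-3p, and miR-21a-5p (0.204), miR-27b-5p (0.212) and miR-140-3p (0.220) to miR-181a-1-3p. All these profiles share the low caput library of replicate 2, and the values are descriptions over 9 libraries.

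Near the chromosome 8 pair, 29602 to 30088 bases away and on the opposite strand, lie the miR-23a, miR-27a and miR-24-2 hairpins, the only other miRNAs of the table within 50 kb of a hairpin of the family. miR-23a-3p averaged 336 ± 105 CPM in caput libraries, 373 ± 25.3 CPM in corpus libraries and 775 ± 139 CPM in cauda libraries (SD, n = 3 each), a log2 change from caput to cauda of 1.23 that was called (SE 0.37, limma adjusted p = 0.0113). Under TMM it was 0.56 and was not called (limma adjusted p = 0.0591). miR-27a-3p, miR-24-3p and miR-24-2-5p were not called from caput to cauda, at 0.86, 0.88 and -0.26 on the log2 scale. Of the 349 miRNAs tested in that comparison 49.0% were called in CPM and 45.3% under TMM.

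Small RNAs that mark other cell types also differed between the segments. Markers of blood and vessel cells are of interest here because the family is expressed in leukocytes and endothelium. In CPM 38.7% of the 349 miRNAs tested were called higher in cauda than caput libraries, and the counts below stand against that share. Of 5 leukocyte miRNAs, which include miR-142a and miR-223, 3 were called higher in cauda than caput libraries, and their summed level was 231 to 530 CPM in caput libraries, 515 to 1149 CPM in corpus libraries and 392 to 1601 CPM in cauda libraries. Both endothelial miRNAs, the arms of miR-126a, had 0 calls in any comparison, with sums of 837 to 2671, 1721 to 3109 and 2684 to 3457 CPM. All 4 red blood cell miRNAs tested were called higher in cauda than caput libraries, with sums of 122 to 468 CPM in caput libraries and 1606 to 2225 CPM in cauda libraries. All 4 smooth muscle miRNAs, the arms of miR-143 and miR-145a, were likewise higher, with sums of 50115 to 88995 and 291676 to 354786 CPM. Nearly all of these sums was miR-143-3p, which averaged 159395 CPM over the 9 libraries, against 902 CPM for miR-145a-5p, the next of the list. Of 6 epithelial miRNAs, the miR-200 group and miR-205-5p, 1 was called higher in cauda than caput libraries, and 2 in corpus than caput libraries, against 19.0% of the 321 miRNAs tested there. The epithelial sums were 21864 to 33624 CPM in caput libraries, 73871 to 85321 CPM in corpus libraries and 46003 to 62093 CPM in cauda libraries. They were highest in the corpus but mainly follow miR-141-3p, which averaged 41337 CPM over the 9 libraries. The next of the list, miR-429-3p, averaged 3759 CPM. All 7 miRNAs tested from the list labelled germ cell were called higher in cauda than caput libraries, with sums of 279 to 989 and 1965 to 2330 CPM. That list includes miR-34c-5p, which averaged 790 CPM over the 9 libraries. The study also reported this miRNA in the epididymal epithelium, at a higher level in the caput than in the cauda. The list is therefore not specific to germ cells, and the source of its sum was not tested. After TMM the leukocyte, red blood cell, smooth muscle and germ cell lists had 3, 2, 2 and 4 members called higher in cauda than caput libraries, the endothelial list had 0, and 1 epithelial miRNA was called lower, against 24.9% of all miRNAs tested called higher and 20.3% called lower. None of the marker miRNAs present in the table was at 0 in any library. Per the study's methods the animals' vessels were flushed before dissection to limit blood. Immunoblots in the study also found no haemoglobin, and no ALOX15 as a marker of sperm cytoplasmic droplets, in the vesicle preparations. The part of these cell types in the levels and ratios of the miR-181 members was not tested.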

How the data were processed

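Small RNA libraries from 9 pools of purified epididymosomes (3 each from caput, corpus and cauda) were analysed. The authors removed contaminant reads, assigned the rest to known mature miRNAs with the miRDeep2 quantifier and deposited CPM, which is the count of an miRNA scaled by library size; the submitters' processing notes name CASAVA 1.8.2, Bowtie 1.1.1 and limma. The genome build and miRBase release are not given in the sources used here. Every deposited value was a whole multiple of the value of 1 read in each library (100% of values, tolerance 0.02 reads), which gave the depths.

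Groups were taken from the sample labels. log2(CPM + 1) of all 358 miRNAs was fitted with limma 3.58 in R 4.3 (segment as the only factor, 9 libraries, trended eBayes), with Benjamini-Hochberg adjustment over those that averaged 10 CPM or more in either segment. Calls required 2-fold and an adjusted p under 0.05; fold changes on this scale understate the change of low miRNAs. The ratio log2((5p + 0.5)/(3p + 0.5)) was fitted by limma over 71 precursors with both arms present. TMM factors were computed in Python 3.11 from the recovered reads. Ratios between members were compared by exact permutation tests. The fits were tested on simulated data. Sequences came from RefSeq and positions from GENCODE M21.

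Named miRNAs were the members, miRNAs within 50 kb of their hairpins, the 3 nearest profiles and marker lists given as counts and sums. The members and lists were chosen with earlier results of these data known. Alternatives covered scaling, pseudocount, filter, libraries in the fit, call rule, replicate block, limma-voom on recovered reads and leaving out each library. The planned edgeR test was not run, because the deposited unit is CPM and each library held too few low values for the recovered reads to be treated as deposited counts; limma-voom on those reads took its place. Replicates of a segment differed by more than sampling noise in every pair, so none was counted as a duplicate.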

Additional observations from a re-analysis of the deposited data

How the results depend on the processing

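Scaling was the choice that mattered most. Under TMM the log2 changes from caput to corpus of miR-181a-1-3p, miR-181b-5p, miR-181c-5p and miR-181d-5p reversed to -0.082, -0.39, -0.15 and -0.15, those from corpus to cauda of miR-181b-5p, miR-181c-5p and miR-181d-5p to -0.013, -0.010 and -0.014, and those from caput to cauda of the same 3 to -0.40, -0.16 and -0.17. Median-of-ratios scaling, chosen after seeing the data, gave -0.028, -0.33, -0.10 and -0.10, then -0.11, -0.11 and -0.12, then -0.45, -0.21 and -0.21. Both scalings called 1 member from caput to cauda, miR-181c-3p, at -1.10 and -1.15. With limma-voom on recovered reads, also added later, the change of miR-181a-5p from corpus to cauda was 0.0034 instead of -0.03. None of these reversed values passed the adjusted threshold.

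With each library left out in turn, members called from caput to cauda ranged from 0 to 1, the 1 being miR-181a-1-3p without caput replicate 3, and miRNAs called in all ranged from 46 to 102 (caput to corpus), 32 to 83 (corpus to cauda) and 132 to 202 (caput to cauda). The lowest counts of the first comparison came without corpus replicate 1 (46), and in the second the counts were 41 and 32 without corpus replicates 1 and 2, and 38 and 39 without cauda replicates 1 and 2. Directions changed within the ranges of miR-181a-5p (-0.27 to 0.25, -0.21 to 0.14 and -0.30 to 0.22), miR-181b-5p (-0.29 to 0.49, -0.10 to 0.27 and -0.20 to 0.58), miR-181c-3p from caput to corpus (-0.54 to 0.0071) and miR-181d-5p from corpus to cauda (-0.055 to 0.21), and the cause was not tested.

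The arm ratios kept direction and side of the threshold under every alternative run. Whether replicate numbers pair the libraries is not established: the deviations of same-numbered libraries correlated at -0.21 to 0.41 (median 0.12, 6 of 9 pairs above 0.1) and those of differently numbered ones at -0.45 to 0.18 (median 0.02, 4 of 18 above 0.1), and a library correlated best with its own number in 10 of 18 cases. With the replicate block 83, 73 and 180 miRNAs were called in the 3 comparisons in place of 72, 65 and 171, and the arm ratio changes from caput to cauda had limma adjusted p of 0.0750 (Mir181c) and 0.0672 (Mir181a-1). The block changed no call of a member. Depth limits miR-181a-1-3p most, at 55 reads in the shallowest library.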
